A study of Mus musculus with 6 samples.

Results

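Genes of antigen presentation by major histocompatibility complex (MHC) class II were examined, 10 in all, in lungs with mutant EGFR-driven lung cancer from mice fed a high-fat diet (LC-HFD) or a regular diet (LC-RD). They were the chain genes H2-Aa, H2-Ab1 and H2-Eb1, the invariant chain Cd74, the transactivator Ciita, the peptide editors H2-DMa and H2-DMb1, the editor's inhibitors H2-Oa and H2-Ob, and the reductase Ifi30. These 10 genes were chosen by name, and every probe set that the platform's annotation gives to exactly 1 of them was read. Of the 10, 9 had 17 such probe sets, out of 18193 genes with a probe set of their own on the array. H2-DMb1 had none and was read only through probe sets it shares with H2-DMb2.

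Lungs of 3 mice made up each group, and each lung was read on an Affymetrix mouse genome array of its own. All mice carried CC10-rtTA and a mutant human EGFR transgene behind a tet-O promoter on a C57BL/6 background, so doxycycline turned on the mutant EGFR where the CC10 promoter is active in the airway epithelium, and the mice were adult males at the start. Per the labels, both groups received doxycycline for 7 weeks, as chow with 625 ppm and drinking water with 2 mg/ml, after 8 weeks of diet, with 60% of energy from fat in the high-fat diet. The study's text gives a shorter time on diet before induction and a longer induction than the labels do. The mice without the EGFR transgene were not analysed here, so both groups compared carry the induced transgene.

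MHC class II molecules show peptides from swallowed or membrane proteins to CD4+ T cells. An alpha and a beta chain assemble in the endoplasmic reticulum around the invariant chain, which also guides them to endosomes. There proteases trim the invariant chain to a fragment that H2-DM exchanges for antigenic peptide, and H2-O restrains H2-DM. In the lung, dendritic cells, B cells, some macrophages and also alveolar type II cells carry class II. Transcription of the class II chain genes depends on CIITA, which docks on factors already bound at an X box and a Y box upstream of them.

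The upstream sequences are shown because these boxes are what CIITA-dependent class II genes are known for. RefSeq upstream sequence (GRCm38.p6) was at hand for 7 of the 10 members, and 5 of these held the letters GNAAC followed by TGATTGG after a gap of 15 to 35 bases, within the 250 bases before the start. Capitals mark these letters, which lie in the X box (first) and the Y box (second), and the bases are written 5′ to 3′ on the strand of the gene.
H2-Aa, chr17:34287857-34287914, minus strand: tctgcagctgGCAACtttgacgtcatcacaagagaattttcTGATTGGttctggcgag
H2-Eb1, chr17:34305766-34305822, plus strand: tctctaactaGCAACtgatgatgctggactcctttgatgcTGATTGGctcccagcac
H2-DMb1, chr17:34153087-34153144, plus strand: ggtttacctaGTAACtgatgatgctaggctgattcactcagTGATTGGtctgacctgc
H2-Oa, chr17:34092293-34092350, plus strand: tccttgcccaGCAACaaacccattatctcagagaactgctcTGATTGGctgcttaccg
H2-Ob, chr17:34238808-34238862, plus strand: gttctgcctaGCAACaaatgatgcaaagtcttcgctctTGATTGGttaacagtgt
The TGATTGG of these 5 genes began 45 to 63 bases before the start, and the gap between both motifs was 23 to 26 bases. H2-DMa, at both of its listed starts, and Ifi30 did not hold the pair in that window. The pair, searched on both strands, was present in 159 of 32851 upstream sequences (0.484%), and TGATTGG alone in 7.23%. The motifs were spelled out after these sequences had been seen, so the matches are a description.

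Among the class II genes, the invariant chain and the transactivator were higher in LC-HFD lungs, while the brightest probe sets of the alpha and beta chain genes differed little. Cd74 was 1.55-fold higher, Ciita 1.45-fold (on 1 of its 3 probe sets) and Ifi30 1.21-fold, and H2-Ob was 1.52-fold lower, each read on the gene's brightest probe set. The probe set that H2-Ob shares with Gm20506 went the other way and was 1.52-fold higher. H2-Aa, H2-Ab1, H2-Eb1, H2-DMa and H2-Oa did not pass. Groups were compared with limma, with Benjamini-Hochberg adjustment over all 45037 probe sets other than controls, and a probe set passed at an adjusted p under 0.05. The difference is LC-HFD minus LC-RD in log2 units, the error of a mean is the SD over the 3 mice of a group. The 3 arrays per group limit the precision.

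Of the 9 members, 3 rose, 1 fell and 5 did not pass. Across all 18193 genes, read the same way, 27.3% passed, 11.1% as higher and 16.2% as lower. None of the members changed over 2-fold, which 1.68% of all genes did with a pass. In 7 of the 9 members the values of the groups did not overlap, against 49.1% of all genes, and 6 of these lay higher and 1 lower (22.3% and 26.8% of all genes). The median difference of the members was 0.17, beside 0.02 over all genes. Over all 17 probe sets 5 were higher and 1 lower, beside 25.0% of all probe sets passing (11.3% higher and 13.6% lower). None of them passed with a change over 2-fold, as 1.73% of all probe sets did. The groups did not overlap in 10 of the 17, 9 of them higher, where 43.8% of all probe sets did not overlap, 22.0% higher and 21.8% lower.

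Control probe sets also separated the arrays of the groups. Hybridization controls, bacterial and phage sequences spiked into the hybridization mix, gave a mean difference of 1.48 log2 units (LC-HFD minus LC-RD). Poly-A controls, spiked into the RNA, gave −0.42 and 18S rRNA −4.92, all without overlap. Beta-actin differed by 0.03 and Gapdh by 0.24. The median log2 value of an array was 4.79 to 4.84. The handling of the arrays and the diet cannot be told apart, which holds for every difference given here. In whole lung, fewer cells of a type and less RNA per cell cannot be told apart either. Surfactant and other alveolar type II genes, which mark the tissue as lung, had a mean log2 value of 12.73 to 12.80 on every array.

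**Figure D1:**
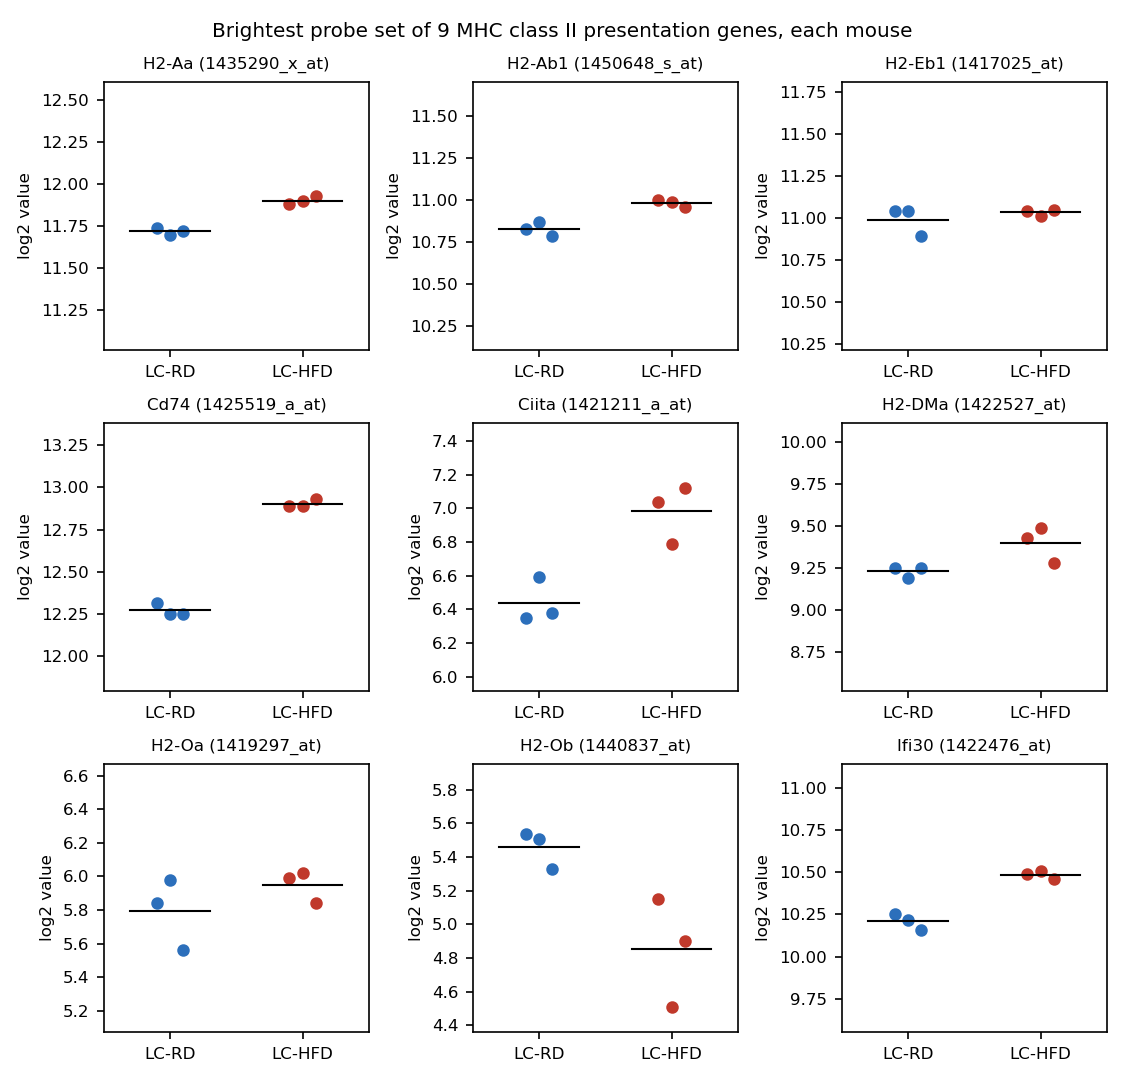
Log2 value (vertical axis, 1.6 log2 units in every panel) of the brightest probe set of 9 class II genes in LC-RD (blue) and LC-HFD (red); each point is 1 mouse and each line the mean of 3. Cd74, Ciita and Ifi30 lay higher in all LC-HFD mice, H2-Ob lay lower, and the groups overlap for H2-Eb1 and H2-Oa. The probe set shared by H2-Ob and Gm20506, which lay higher, is not shown.

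Cd74 encodes the invariant chain, the chaperone of newly made class II molecules. Its 1 probe set read 12.89, 12.89 and 12.93 in the 3 LC-HFD lungs and 12.31, 12.25 and 12.25 in the 3 LC-RD lungs. The LC-HFD values all lay above the LC-RD values, and mice of a group differed by less than 0.1 log2 units. The means were 12.90 ± 0.0230 and 12.27 ± 0.0330, a difference of 0.63 (standard error 0.0678, 95% interval 0.47 to 0.79, limma adjusted p = 0.00134). The difference was 0.62 to 0.65 and passed under all 15 alternative settings. The highest value on any array was 13.81, so this probe set was bright and below the ceiling of the scale.

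The alpha chain gene H2-Aa had 4 probe sets, all with a positive difference, and only the second brightest passed. The brightest read 11.88, 11.90 and 11.93 in LC-HFD and 11.74, 11.70 and 11.72 in LC-RD. The groups lay apart, but the difference of 0.18 (standard error 0.0669, 95% interval 0.02 to 0.34) did not pass (limma adjusted p = 0.0883). It did pass in 4 alternative settings, among them the methods' t-test (adjusted p = 0.0128; 0.000475 to 0.330 over all alternatives). The second brightest rose, with 11.71, 11.68 and 11.68 against 11.26, 11.23 and 11.44 (difference 0.38, standard error 0.0816, adjusted p = 0.0157). That call was lost without LC-RD replicate 1 (adjusted p = 0.0711) or LC-RD replicate 2 (0.0694). It was also lost when the 3′ to 5′ signal gap of housekeeping controls, a measure of RNA quality, was added to the fit (0.108). There the difference was 0.39 and the standard error rose to 0.124. The gap averaged 1.65 in LC-HFD and 1.73 in LC-RD, so this covariate partly follows the groups. The other 2 probe sets gave 0.21 and 0.12 and did not pass. Names ending in _x_at, as 3 of these do, mark probe sets that may also bind related transcripts.

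H2-Ab1 encodes the beta chain that pairs with the H2-Aa product. Its brightest probe set read 11.00, 10.99 and 10.96 in LC-HFD and 10.83, 10.87 and 10.79 in LC-RD. These values did not overlap either, but the difference of 0.15 (standard error 0.0678) did not pass (limma adjusted p = 0.137; 0.00484 to 0.383 over the alternatives, 3 of which passed). The other 2 probe sets overlapped between the groups, with differences of 0.14 and 0.07.

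H2-Eb1, the beta chain gene of the second class II isotype, differed by less than the spread between mice. Its 1 probe set read 11.04, 11.01 and 11.05 in LC-HFD and 11.04, 11.04 and 10.89 in LC-RD. The difference was 0.04 with a 95% interval of −0.13 to 0.22 (limma adjusted p = 0.691). In C57BL/6 mice the alpha partner gene H2-Ea carries a promoter deletion and makes no message. The 3 probe sets that the annotation gives to H2-Ea had LC-RD means of 6.19, 3.70 and 1.81 and differences of 0.16, 0.33 and 0.07, and 0 passed by limma, also at an unadjusted p under 0.05.

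The gap between Cd74 and the chain genes was itself wider on every LC-HFD array than on any LC-RD array. A probe set's brightness cannot be compared with that of another, but the change of their difference from array to array can. Cd74 minus H2-Aa was 1.01, 0.98 and 1.00 on the LC-HFD arrays and 0.56, 0.55 and 0.53 on the LC-RD arrays, and thus larger by 0.45 in LC-HFD. The same difference was larger by 0.48 against H2-Ab1 and by 0.59 against H2-Eb1, again without overlap. On the second brightest H2-Aa probe set, tried after the values had been seen, the gap was 1.18, 1.21 and 1.24 against 1.05, 1.02 and 0.81, larger by 0.25 only. On the other probe sets of H2-Aa and H2-Ab1 it was larger by 0.42 to 0.56. Each of the 3 pairs on the brightest probe sets gave an exact permutation p of 0.1 (two-sided, n = 3 per group), or 0.1 adjusted over the 4 pairs compared, and 3 against 3 arrays cannot give a smaller one.

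**Figure D2:**
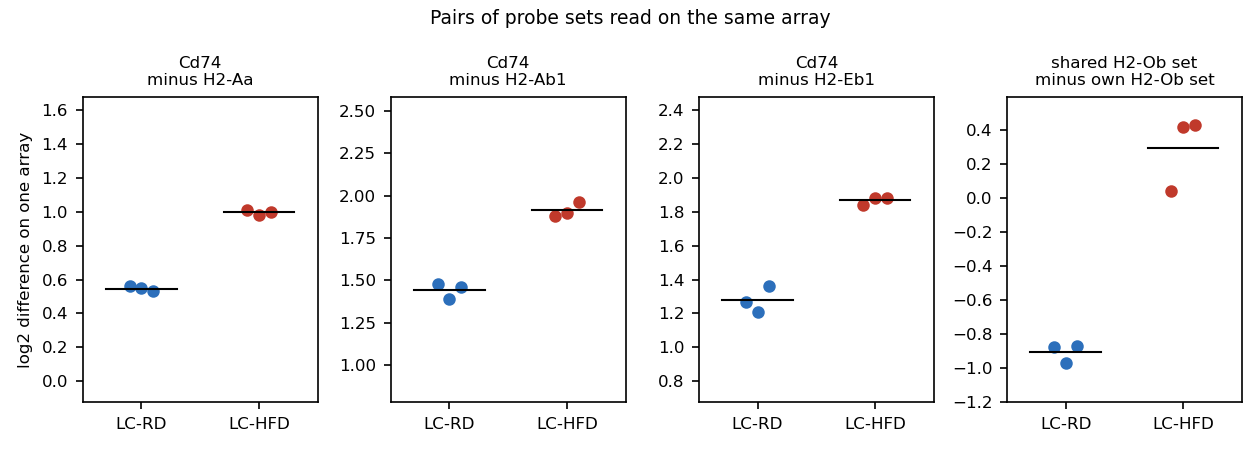
Log2 difference between 2 probe sets on the same array (vertical axis, 1.8 log2 units in every panel) in LC-RD (blue) and LC-HFD (red); each point is 1 mouse and each line the mean of 3. In all 4 pairs the LC-HFD points lie above the LC-RD points, by 0.45 to 0.59 for Cd74 and by 1.20 for the H2-Ob pair.

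Ciita encodes the coactivator that switches class II genes on. Its 3 probe sets gave different answers. The brightest read 7.04, 6.79 and 7.12 in LC-HFD and 6.35, 6.59 and 6.38 in LC-RD, and every LC-HFD mouse lay above every LC-RD mouse. The means were 6.98 ± 0.169 and 6.44 ± 0.132, a difference of 0.54 (standard error 0.113, 95% interval 0.27 to 0.80, limma adjusted p = 0.0144). The second gave 5.67, 5.77 and 5.60 against 5.92, 5.72 and 5.47, which overlap (difference −0.02, adjusted p = 0.916). The third gave 3.76, 4.14 and 3.95 against 4.30, 4.61 and 4.02, a difference of −0.36 that did not pass (adjusted p = 0.145). The call on the brightest was lost without LC-RD replicate 1 (adjusted p = 0.0614), without LC-RD replicate 3 (0.0514) and with the methods' t-test (0.0604), with differences of 0.47 to 0.78 over all alternatives.

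H2-DMa encodes the alpha chain of H2-DM, which removes the invariant chain fragment from the peptide groove. On its brightest probe set it read 9.43, 9.49 and 9.28 in LC-HFD and 9.25, 9.19 and 9.25 in LC-RD, a difference of 0.17 that did not pass (standard error 0.0823, limma adjusted p = 0.168). Its other probe set rose from 5.41 ± 0.0321 to 5.75 ± 0.0326 (difference 0.35, adjusted p = 0.0117), a call lost without LC-RD replicate 1 (0.0602) or LC-RD replicate 2 (0.0541) and with the RNA quality covariate (0.0700). The 2 probe sets shared by H2-DMb1 and H2-DMb2, which encode beta chains of H2-DM, gave 0.06 (95% interval −0.10 to 0.22) and 0.04 (−0.18 to 0.26). The 3 probe sets of H2-DMb2 alone gave −0.13, −0.17 and −0.48, the last with an adjusted p of 0.0263.

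H2-Oa and H2-Ob encode the chains of H2-O, the inhibitor of H2-DM found mainly in B cells. H2-Oa read 5.99, 6.02 and 5.84 in LC-HFD and 5.84, 5.98 and 5.56 in LC-RD, which overlap (difference 0.16, 95% interval −0.12 to 0.44, limma adjusted p = 0.360). The probe set of H2-Ob alone read 5.15, 4.51 and 4.90 in LC-HFD and 5.54, 5.51 and 5.33 in LC-RD. All 3 LC-HFD values were below the LC-RD values, with means of 4.86 ± 0.322 and 5.46 ± 0.115 and a difference of −0.60 (standard error 0.161, adjusted p = 0.0334). The probe set that the annotation gives to both H2-Ob and Gm20506 went the opposite way, with 5.19, 4.94 and 5.33 against 4.65, 4.54 and 4.45 (difference 0.60, standard error 0.115, adjusted p = 0.0104). This shared set passed in every alternative but the methods' t-test (adjusted p = 0.0514). Shared minus own, on the same array, was larger by 1.20 in LC-HFD (exact permutation p = 0.1, two-sided, n = 3 per group). Both probe sets already separated the groups in opposite directions, so this difference had to separate them too. Its p adds nothing to their values. The fall of H2-Ob did not pass without LC-HFD replicate 3 (adjusted p = 0.0669), LC-RD replicate 1 (0.107), LC-RD replicate 2 (0.106) or LC-RD replicate 3 (0.0605), with the methods' t-test (0.122), or with the RNA quality covariate, where it was −0.32 (0.334).

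Ifi30 encodes GILT, a thiol reductase that opens disulfide bonds of antigens in lysosomes. Its own probe set read 10.49, 10.51 and 10.46 in LC-HFD and 10.25, 10.22 and 10.16 in LC-RD. The groups lay apart, with a difference of 0.27 (standard error 0.0690, 95% interval 0.11 to 0.44, limma adjusted p = 0.0275). The size was 0.24 to 0.30 under all alternatives, but the call was lost without each array in turn other than LC-HFD replicate 1, with adjusted p of 0.0503 to 0.0912, and with the RNA quality covariate (0.198). The probe set shared with Pik3r2 gave 0.07 and did not pass.

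**Figure D3:**
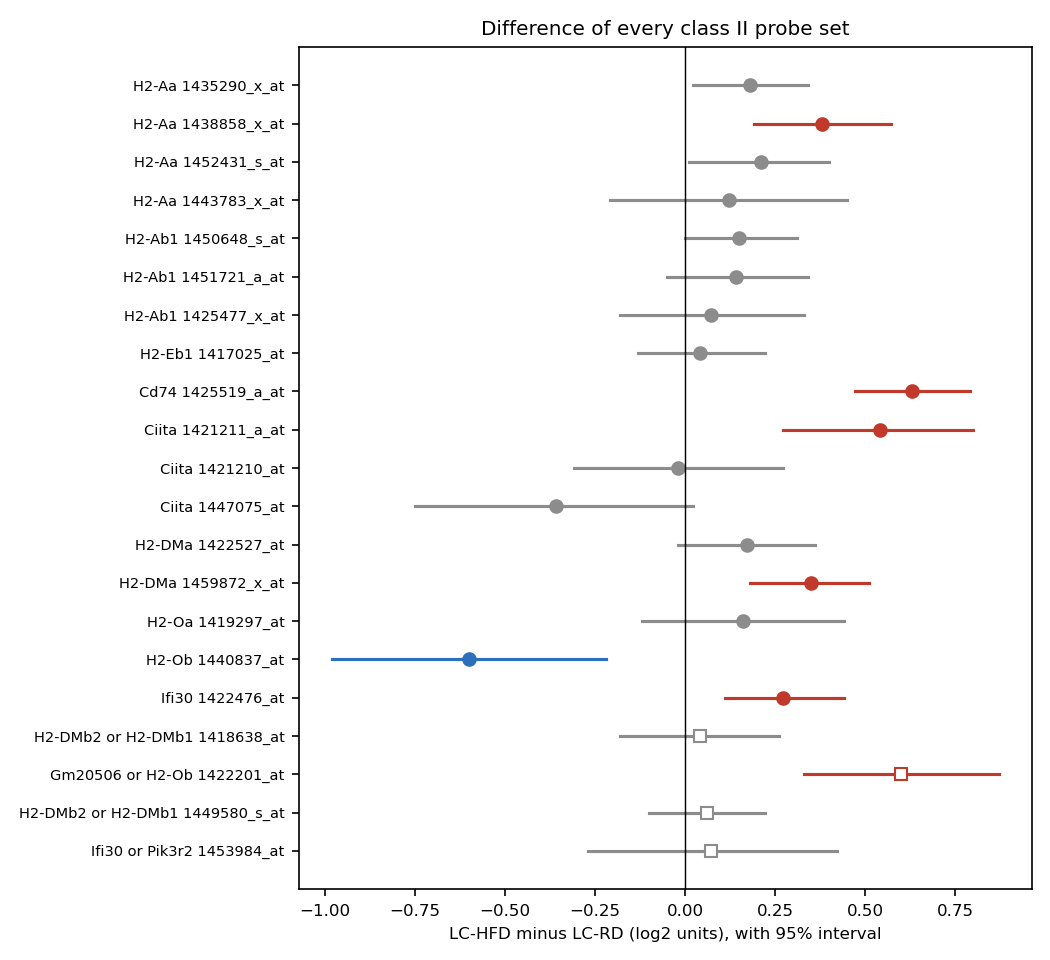
LC-HFD minus LC-RD in log2 units (horizontal axis) for the 17 probe sets of single class II genes (circles) and the 4 shared ones (open squares), with 95% intervals from limma; red marks higher and blue lower at an adjusted p under 0.05, grey not passing. Probe sets of Ciita and of H2-Ob lie on both sides of 0, and the largest difference is that of Cd74.

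The factors that act upstream of class II genes moved in both directions. Of 19 measured genes of this group 11 did not pass, 4 rose and 4 fell, with a median of 0.00. Across all genes 27.3% passed, 11.1% as higher and 16.2% as lower, and the counts of the lists below stand beside these shares too. Rfx5, the subunit of the X box complex after which it is named, fell by 0.47 (limma adjusted p = 0.00647). Of the Y box factor's subunits, Nfya rose by 0.48 (0.06 to 0.61 over its 3 probe sets), Nfyc rose by 0.24 and Nfyb fell by 0.41. Spi1, which encodes the myeloid and B cell factor PU.1, rose by 0.55. Prdm1, which encodes BLIMP-1, a repressor of Ciita in plasma cells, fell by 0.82 (5.07 ± 0.107 against 5.89 ± 0.113, adjusted p = 0.00166). Pax5, a B cell factor, rose by 0.42. Without 1 array the calls of Nfyb (LC-RD replicate 1 or 2), of Nfyc (any array) and, further down, of Jak2 (any but LC-HFD replicate 3) did not hold, with adjusted p of 0.0503 to 0.142. With the RNA quality covariate Rfx5, Nfya and Prdm1 still passed and the other 5 did not (adjusted p = 0.0511 to 0.257).

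IFN-γ is the best known inducer of Ciita, and its own message was near the bottom of the scale. Ifng had a mean of 2.30 in either group. Of 11 measured genes that IFN-γ induces, 4 were higher and 0 lower by limma, with a median of 0.29 (6 and 0 at an unadjusted p under 0.05, and 5 and 0 by the methods' t-test). They were Igtp (0.68), Iigp1 (0.53) and Gbp2 (0.46), which encode GTPases, and the chemokine gene Cxcl10 (0.32). Irf1 gave 0.24 (limma adjusted p = 0.0533). Among the receptor's kinases Jak2 fell by 0.26 (limma adjusted p = 0.0425), and Jak1 gave 0.11 and did not pass. The Jak2 call was also lost with quantile normalization (0.0843), median centering (0.0538) and a replicate block (0.102). Cxcl10 was dim, with an LC-RD mean of 3.54. Its call was lost without any 1 array but LC-HFD replicate 2 (limma adjusted p = 0.0802 to 0.145) and with the RNA quality covariate (0.0580). It was lost too with quantile normalization (0.11), the intensity trend (0.107), a replicate block (0.067) and the methods' t-test (0.0934). The calls of the 3 GTPase genes held in each of these settings.

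Among 9 genes of invariant chain and antigen processing, mostly proteases and with the cathepsin inhibitor Cst3 among them, 1 was higher, with a median of 0.05. Cathepsin S (Ctss), which makes the last cuts of the invariant chain, gave 0.10 (12.43 ± 0.0824 against 12.34 ± 0.0343, limma adjusted p = 0.373), and legumain (Lgmn) 0.17. Ctsb rose by 0.26 on the brightest of 5 probe sets, which together spanned −0.20 to 0.50. That call was lost without any 1 array but LC-HFD replicate 1 (adjusted p = 0.0608 to 0.101). It was also lost with quantile normalization (0.0648), a replicate block (0.0905) and the RNA quality covariate (0.194). Among 8 genes of class II turnover and traffic 2 were lower, Marchf8, which encodes a membrane ubiquitin ligase, by 0.39 and Vps35, of endosomal recycling, by 0.38. Marchf1, the ligase that removes class II from the surface of dendritic and B cells, gave −0.26 (adjusted p = 0.131), with −0.34 to 0.17 over its 3 probe sets. The call of Marchf8 was lost without LC-HFD replicate 3 or any 1 LC-RD array (0.0509 to 0.0702) and with the methods' t-test (0.0516). With the RNA quality covariate neither Marchf8 (0.201) nor Vps35 (0.102) passed.

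Costimulation is the second signal that presenting cells give to T cells. A list of its genes, which also holds the inhibitory ligands Cd274 and Pdcd1lg2 and Cd4 and Lag3, whose products on T cells bind class II, had 4 higher and 0 lower of 11 by limma, with a median of 0.31. At an unadjusted p under 0.05 these were 7 and 1, and by the methods' t-test 4 and 0. Across all genes 11.1% were higher and 16.2% lower by limma. The ICOS ligand gene Icosl rose by 0.88 on its brightest probe set (limma adjusted p = 0.000620), and the other gave 0.40. Tnfsf9, the 4-1BB ligand gene, rose by 0.31, Lag3 by 0.47, and Cd80 by 0.42. Lag3, Cd80 and Pdcd1lg2 were dim, at LC-RD means of 3.80, 3.46 and 3.50. Pdcd1lg2, which encodes the inhibitory ligand PD-L2, gave 0.53 (adjusted p = 0.0746), Cd86 0.01 and Cd40 −0.03. The call of Cd80 was lost without LC-RD replicate 1 (0.0606), and that of Tnfsf9 without any 1 array but LC-HFD replicate 1 (0.0544 to 0.0999). With the RNA quality covariate Icosl still passed, and Lag3 (0.0504), Cd80 (0.108) and Tnfsf9 (0.188) did not.

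Markers of cells that carry class II were read beside these genes. Of 10 B cell markers 2 were higher and 2 lower (Cd79a by 0.96 and Pax5 by 0.42, against Ms4a1 by −0.70 and Bank1 by −0.83), with a mean log2 level of 5.20 to 5.29 in LC-HFD and 5.30 to 5.33 in LC-RD. Of 12 dendritic cell markers 2 were higher and 1 lower (Fscn1 by 0.57 and Ccl22 by 0.53, against Zbtb46 by −0.54, whose 4 probe sets reached 0.34), with levels of 5.34 to 5.50 and 5.37 to 5.42. Of 10 alveolar macrophage markers 2 were higher and 1 lower (Marco by 0.77 and Chil3 by 0.29, against Atp6v0d2 by −0.43), with levels of 8.60 to 8.69 and 8.64 to 8.68. The defining markers Flt3, Siglecf and Itgax gave −0.13, −0.32 and 0.20 and did not pass. Of the 10 calls in these lists that of Chil3 was lost without LC-HFD replicate 3, LC-RD replicate 1 or LC-RD replicate 2 (limma adjusted p = 0.0579 to 0.0997). With the RNA quality covariate Pax5, Zbtb46, Chil3 and Atp6v0d2 did not pass (0.0922 to 0.118).

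Of the cell marker lists, only interstitial macrophages and monocytes had a mean level that was narrowly higher on every LC-HFD array. Those of B cells and of leukocytes at large were lower on every LC-HFD array. Among single genes, 49.1% did not overlap between the groups. The interstitial macrophage and monocyte level was 7.71 to 7.77 in LC-HFD and 7.65 to 7.69 in LC-RD, and 4 of 10 markers were higher and 1 lower. The complement genes C1qa, C1qb and C1qc rose by 0.35, 0.62 and 0.53, and the monocyte receptor Ccr2 fell by 0.91 on its brightest probe set, with other sets up to 0.25. Csf1r and Adgre1, which mark macrophages at large, gave −0.03 (to 0.40 over 3 probe sets) and −0.00. The call of C1qa was lost without LC-HFD replicate 3 or any 1 LC-RD array (limma adjusted p = 0.0524 to 0.0661), and that of Fcgr4, higher by 0.25, without any array (0.0536 to 0.141). Neither passed with the RNA quality covariate (0.0838 and 0.145). Of 8 T cell markers 0 passed by limma or by the methods' t-test (3 at an unadjusted p under 0.05, 2 higher and 1 lower), with levels of 4.40 to 4.62 and 4.45 to 4.50. Of 9 alveolar type II markers 1 passed, Abca3 by 0.30 with other sets down to −0.49 and not without any 1 LC-RD array (adjusted p = 0.0565 to 0.0759) or with that covariate (0.121; levels 12.75 to 12.80 and 12.73 to 12.79). The brightest Sftpc probe set read 13.81 on every array, the ceiling of the scale, and so could not show a difference. Its other probe set gave 1.45, and the study lists a dim Sftpc probe set as higher. Of 7 genes of leukocytes at large 1 was higher and 0 lower by limma (1 and 3 at an unadjusted p under 0.05, 0 and 0 by the methods' t-test). Lcp1, which encodes the actin bundler L-plastin, rose by 0.33, a call lost without LC-HFD replicate 1 or 2 or LC-RD replicate 1 or 2 (0.0662 to 0.118) and with the covariate (0.213). Ptprc, the gene of the leukocyte antigen CD45, gave −0.16 on its brightest probe set and did not pass, and its other probe set gave −1.39. The mean level of the 7 was 10.05 to 10.11 in LC-HFD and 10.13 to 10.22 in LC-RD, which do not overlap. The part of these cells in the class II values was not tested.

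**Figure D4:**
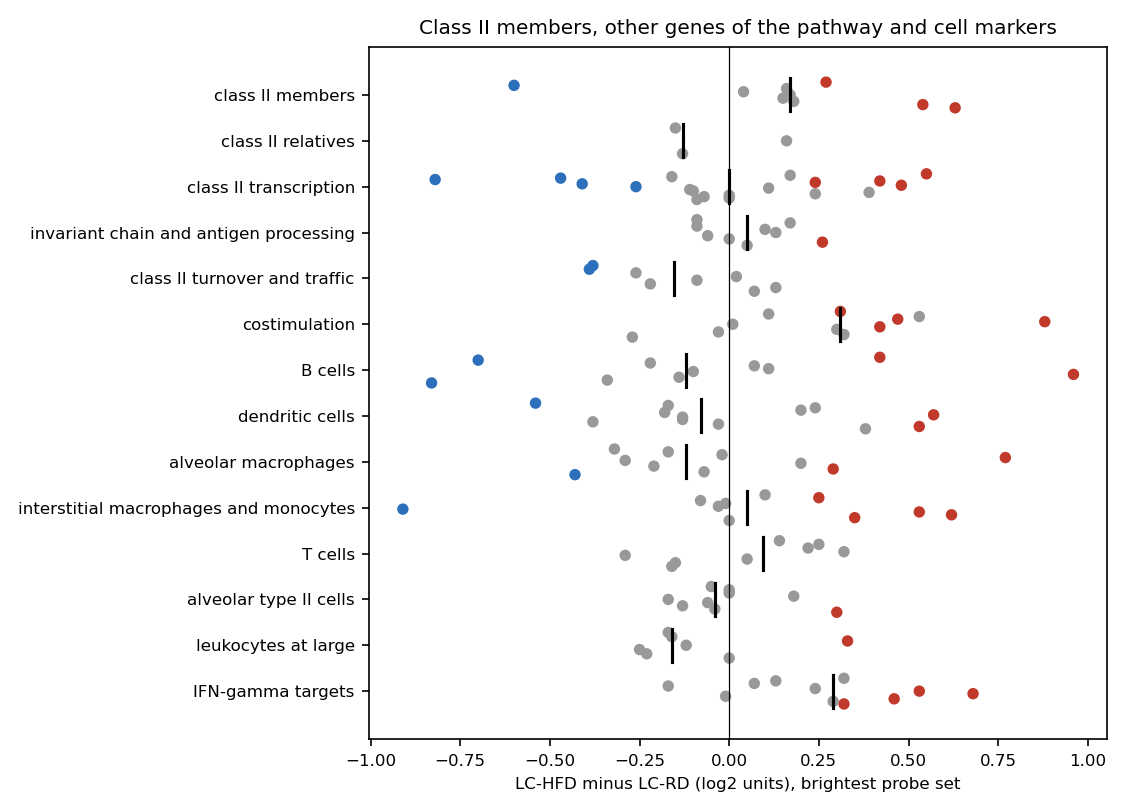
LC-HFD minus LC-RD in log2 units (horizontal axis) on the brightest probe set of each measured gene, in rows for the class II members, other genes of the pathway and cell markers; red and blue points are higher and lower at a limma adjusted p under 0.05, grey points did not pass, and black lines are medians. Costimulation and IFN-γ targets have medians of 0.31 and 0.29 with red points only among those that passed, while the medians of the cell marker rows run from −0.16 to 0.09.

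Within a group the chain genes and Cd74 varied very little between mice. With each group's mean removed, the mean of their 4 brightest probe sets deviated by −0.008 to 0.011 in LC-HFD and by −0.039 to 0.027 in LC-RD. Among 2682 other genes, those with a mean value of at least 6 and an SD within groups of at least 0.1, the ones that followed this pattern most closely over the 6 arrays were Lcmt2, Aldh1a1, Trem2, Zbtb39, Rbsn, Fbxo2, Rgs12 and Zfp830 (Pearson's r = 0.977 to 0.991). Trem2 encodes a receptor of macrophages and Aldh1a1 a retinaldehyde dehydrogenase. With 6 arrays and so many genes, r near 1 is a description of these arrays alone.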

How the data were processed

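The authors hybridized lung RNA of each mouse to an Affymetrix whole-genome mouse array and deposited 1 table of log2 values, 1 per probe set and array. The submitters' processing notes name GCRMA, in which background is estimated from the probes' bases and arrays are brought to a common distribution. The methods name Partek software, and its version and settings are not given here. No column was left unused (0), and no value was normalized again.

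Of 45101 probe sets 64 controls were kept apart. Of the rest, 34945 belong to 1 gene and 932 to several, and for 34741 the symbol was brought up to date by Entrez ID. The brightest probe set of a gene has the highest mean log2 value over the 6 arrays. The test was limma 3.58.1 in R 4.3.3 (two-sided, default settings).

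The members and lists were chosen with earlier results of these data known. Besides the members, up to 4 genes with the largest change were named from each of 13 lists (123 measured genes), with defining markers; Nfyb, Nfyc, Pax5, Jak1, Jak2, Ifng, Irf1, Tnfsf9, Cd86, Cd40, Cst3, Cd274, Cd4, Csf1r, Adgre1 and Fcgr4 were added after their values were seen. Some list members are not analysed here. The labels do not say whether samples came from separate litters. The t-test's p-values measure the spread between these mice, while those of limma also draw on the spread pooled over all probe sets. On the brightest probe sets the standard error by limma and by the t-test was 0.0669 and 0.0185 for H2-Aa, and 0.0678 and 0.0232 for H2-Ab1. Both passed by the t-test and not by limma. Alternatives were the methods' t-test, quantile normalization, median centering, weights per array, an intensity trend with robust variance, minimum mean log2 values of 4 and 6, the 3′ to 5′ gap of 4 control genes as a covariate, a replicate block, the median of a gene's probe sets, a 2-fold threshold and each array left out. Figures used Python 3.11.15 and matplotlib 3.10.9.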

Additional observations from a re-analysis of the deposited data

How the results depend on the processing

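The share of all probe sets that passed moved with the settings, and the members' counts are to be read against it. It was 25.0% as reported, 30.6% with an intensity trend and robust variance, 42.5% and 55.0% with a minimum mean of 4 and 6 log2 units, 7.90% with the 3′ to 5′ covariate, 17.7% with the methods' t-test, 17.6% with a replicate block and 12.9% to 25.6% with each array left out. On the brightest probe sets, where 3 members were higher and 1 lower, 6 were higher with the intensity trend and 5 were higher and 0 lower when a mean of at least 6 log2 units was required, where H2-Oa and H2-Ob were no longer tested. With each array left out in turn, 1 to 3 were higher and 0 to 1 lower. None was lower (0) with the methods' t-test or the 3′ to 5′ covariate, and 0 passed either way when a 2-fold change was required. Over the 17 probe sets, where 5 were higher and 1 lower, the intensity trend gave 9 higher, the covariate gave 2 higher and 0 lower, the t-test and the minimum of 6 gave 0 lower, and a 2-fold change left 0. Leaving out each array gave 1 to 5 higher and 0 to 1 lower. The other lists had 24 higher and 11 lower genes. The covariate gave 11 and 5, the intensity trend gave 21 lower, the minimums of 4 and 6 gave 19 and 17 lower, and leaving out each array gave 14 to 23 higher and 8 to 13 lower. Where fewer samples or probe sets entered, that follows from the setting. The 3′ to 5′ covariate adds a term to the fit and differed in mean between the groups (1.65 in LC-HFD, 1.73 in LC-RD). With it the difference of Cd74 stayed at 0.63 while its standard error went from 0.0678 to 0.103, and that of H2-Ob moved from −0.60 to −0.32. Otherwise the cause was not tested.

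Differences near 0 changed sign in 9 cases. The fourth H2-Aa probe set gave −0.01 without LC-RD replicate 1 (to 0.28 without another array), the third of H2-Ab1 −0.03 without LC-HFD replicate 3 (to 0.17 without another array, 0.27 with the covariate), and H2-Eb1 −0.0046 without LC-RD replicate 3 (to 0.07). The second of Ciita gave 0.03 with quantile normalization, 0.02 without LC-HFD replicate 3 and 0.09 without LC-RD replicate 1 (from −0.14 without another array, −0.18 with the covariate). A probe set shared by H2-DMb1 and H2-DMb2 gave −0.03 without LC-HFD replicate 3 and −0.01 without LC-RD replicate 3 (to 0.10 without another array, 0.15 with the covariate), and that of Ifi30 and Pik3r2 −0.06 without LC-RD replicate 2 (to 0.21). The count of values covered the members' own and shared probe sets and the genes with the largest change from each of the other lists. Over all alternatives 907 of these 1051 values kept their direction and side of the threshold. Named genes outside that choice, such as Nfyb and Nfyc, were not part of this count.

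The replicate numbers did not pair the mice (correlations of −0.04, −0.09 and −0.03 between same-numbered arrays). With them as a replicate block 2 members were higher and 1 was lower by their brightest probe sets, 4 and 1 over all probe sets and 16 and 11 in the other lists, and Ifi30 no longer passed (adjusted p = 0.0799). Probe sets near the bottom of the scale, such as the third of Ciita, limit what a small difference can show.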
